A study of Mus musculus with 7 samples.

Results

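The p53 target genes described here are genes that the tumour suppressor p53 switches on in stressed cells, 36 in all, taken from general knowledge and listed by name. Probe sets were matched to them by the gene symbol of the array's annotation, and the probe set of highest average intensity stood for each gene. This gave 32 measured members among 12393 measured genes. Bax, Eda2r, Tigar and Gdf15 were not analysed here.

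The arrays measured messenger RNA in primary keratinocytes of the mouse, which form the layers of the epidermis. Cells had received either small interfering RNA (siRNA) against Trp63 (5 arrays, replicates 1, 2, 3, 4 and 7) or a non-specific control siRNA (2 arrays, replicates 5 and 6). All were collected 48 h after transfection, and the labels give no strain, age, siRNA sequence or other treatment. Since nothing in them ties replicates to separate cultures, the p-values rest on a spread between arrays that may be technical only. The values are linear intensities, and differences are given as Trp63 siRNA minus control siRNA on the log2(intensity + 16) scale.

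The p53 protein and p63, the product of Trp63, belong to one family of transcription factors and bind closely related DNA sequences. Such a p53 response element is built of a pair of half-sites. In keratinocytes the main form of p63 lacks the N-terminal activation domain, and it is known to occupy response elements of some p53 targets, among them those of Cdkn1a and Sfn. Products of p53 targets halt the cell cycle, start apoptosis, repair DNA, adjust metabolism and, through Mdm2, lower p53 itself.

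To show where such half-sites lie at these genes, the 250 bases before each RefSeq transcription start (build GRCm38.p6) were searched. The search used the p53 half-site consensus, which reads the same on both strands. Single exact matches were sought, so pairs were not tested and half-sites with a mismatch stay in lower case below. Of 25 measured members with such a window, 11 held at least 1 exact match, against 7.51% of 9888 genes on the array. Since the members were listed as p53 targets, this excess may follow from the choice of genes. Matches occurred in 5 of the 13 members that changed and had a window, and in 6 of the 12 that did not pass the test. The members with a match that changed were Gadd45a, Ddit4l, Sesn1, Ei24 and Polk, and those that did not pass were Cdkn1a, Ccng1, Mdm2, Ppm1d, Aen and Ckap2. A match is a description of letters, and p53 or p63 binding was not measured. The 5 windows below show 1 member that rose, 2 that fell and 2 classic targets that did not pass, with the half-site in capitals. They lie at chr6:67037408-67037657 (minus strand, Gadd45a), chr3:137623422-137623671 (plus, Ddit4l), chr10:41887189-41887438 (plus, Sesn1), chr17:29090729-29090978 (plus, Cdkn1a) and chr11:40755287-40755536 (minus, Ccng1), each written 5′ to 3′ in the direction of the gene.
Gadd45a: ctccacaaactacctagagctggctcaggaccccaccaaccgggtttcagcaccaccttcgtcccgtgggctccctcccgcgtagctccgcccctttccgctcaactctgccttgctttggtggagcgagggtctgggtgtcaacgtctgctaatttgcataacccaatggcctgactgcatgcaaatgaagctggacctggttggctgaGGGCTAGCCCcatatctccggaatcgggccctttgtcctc
Ddit4l: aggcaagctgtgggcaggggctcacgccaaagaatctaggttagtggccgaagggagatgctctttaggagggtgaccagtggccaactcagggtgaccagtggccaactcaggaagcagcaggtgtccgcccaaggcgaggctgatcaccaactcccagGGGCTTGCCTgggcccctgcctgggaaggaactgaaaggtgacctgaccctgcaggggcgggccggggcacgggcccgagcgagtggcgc
Sesn1: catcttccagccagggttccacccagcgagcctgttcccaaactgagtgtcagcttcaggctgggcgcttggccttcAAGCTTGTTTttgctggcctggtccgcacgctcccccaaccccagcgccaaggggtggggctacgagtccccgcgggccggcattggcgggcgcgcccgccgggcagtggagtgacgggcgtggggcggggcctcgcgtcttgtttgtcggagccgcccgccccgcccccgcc
Cdkn1a: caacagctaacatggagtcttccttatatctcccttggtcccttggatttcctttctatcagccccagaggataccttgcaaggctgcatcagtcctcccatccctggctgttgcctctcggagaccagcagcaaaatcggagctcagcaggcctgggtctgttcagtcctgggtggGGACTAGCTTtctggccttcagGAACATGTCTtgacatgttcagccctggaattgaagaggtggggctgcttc
Ccng1: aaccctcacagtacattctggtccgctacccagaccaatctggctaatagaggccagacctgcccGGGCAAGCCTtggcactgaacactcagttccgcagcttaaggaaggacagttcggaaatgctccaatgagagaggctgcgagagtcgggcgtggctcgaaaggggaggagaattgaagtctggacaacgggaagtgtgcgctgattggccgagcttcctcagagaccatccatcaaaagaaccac

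The Cdkn1a window shown held 2 matches, beginning 73 and 51 bases before the start, and the other 4 windows held 1 each. Cdkn1a and Sesn1 each had 2 RefSeq starts, and only the window shown held a match. The match began 40 bases before the start in Gadd45a, 90 in Ddit4l, 173 in Sesn1 and 185 in Ccng1. Plk3, Sfn, Fas and Dcxr, which changed by more than most members, had no exact match in this window.

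Some facts of the whole set of arrays bear on the members. Median intensity was alike on all 7 arrays, at 207 to 214. Trp63 itself read 541, 519, 457, 504 and 492 in the Trp63 siRNA arrays, against 1447 and 1683 in the control arrays (log2 difference -1.61, SE 0.0876, limma adjusted p = 1.0e-05). Its 2 dimmer probe sets fell by less, with log2 differences of -0.49 and -0.54 (limma adjusted p = 0.00228 and 0.000339). Of 10 measured keratinocyte markers all were lower, with a summed intensity of 47701 to 51926 in Trp63 siRNA arrays against 64759 to 68562 in control arrays. They were Krt5, Krt14, Krt15, Itga6, Itgb4, Col17a1, Dsp, Lamb3, Perp and Sfn. Of these Sfn is itself a member and Perp is among the further p53 targets described below, so the sum counts both again. The ratio of 3′ to 5′ array control probe sets is a sign of RNA quality. For Gapdh and beta-actin it was lower in every Trp63 siRNA array than in either control. It was 0.90 to 0.94 against 0.98 in both for Gapdh, and 1.14 to 1.25 against 1.30 and 1.36 for beta-actin. These ratios thus moved with the groups compared throughout. That of the transferrin receptor did not: Trp63 siRNA replicates 3 and 4 (3.16 and 3.21) lay above both controls (3.08 and 3.07). Trp63 siRNA replicates 1, 2 and 7 lay below both. The part of these ratios in the results was not tested. In whole cultures, fewer cells of a type and less RNA per cell cannot be told apart. Melanocyte markers, 9 of 10 measured and none called, split the arrays across the groups: their summed intensity was 11692 and 12346 in Trp63 siRNA replicates 1 and 2, 7081 to 7492 in the other 3, 10424 in control replicate 5 and 6929 in control replicate 6. Fibroblast markers summed to 1724 to 2122 against 1546 to 1849, immune markers to 1791 to 2019 against 1755 to 1851 and endothelial markers to 653 to 681 against 677 to 729. Fibroblast sums were highest in the same 3 arrays as melanocyte sums: 2122 and 2002 in Trp63 siRNA replicates 1 and 2 and 1849 in control replicate 5. They were 1724 to 1774 in the other silenced arrays and 1546 in control replicate 6. Within each group endothelial sums were also higher in these 3 arrays (681 and 678 against 653 to 658, and 729 against 677). Of 10 fibroblast markers Col1a1 rose (0.44, limma adjusted p = 0.0032), of 10 immune markers Cd68 and Cd14 rose (0.60 and 0.52, limma adjusted p = 0.024 and 0.00271) and Tyrobp fell (-0.20, limma adjusted p = 0.0178), and none of 6 endothelial markers passed. The part of these markers in the results was not tested. Trp63 siRNA replicate 1 stood apart from the other 4 for 9 of the 32 members, and without it 5 members rose and 12 fell. Over all probe sets 2326 rose and 3176 fell without it, against 1771 and 1847 with all 7 arrays.

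Of the 32 members, 14 passed the test (limma, adjusted p below 0.05): 4 rose, 10 fell and 18 did not pass. That is 43.8% of the members, while 16.6% of all genes passed, and 23.1% of genes at or above the median level of all probe sets, where 27 of the members lay. Among all genes 8.03% rose and 8.57% fell. The members were chosen with earlier results of these data known, and what part that choice has in these shares was not tested. The median log2 difference was -0.13 over the members and -0.04 over all genes. The members that rose were Plk3, Plk2, Gadd45a and Xpc, and those that fell were Dcxr, Ddit4l, Fas, Sfn, Polk, Sesn1, Apaf1, Trp73, Phlda3 and Ei24. In 5 members all Trp63 siRNA arrays lay above both controls and in 14 all lay below, whereas 14.3% and 24% of all genes did so. The number that fell was 6 without control replicate 5 and 4 without control replicate 6.

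**Figure D1:**
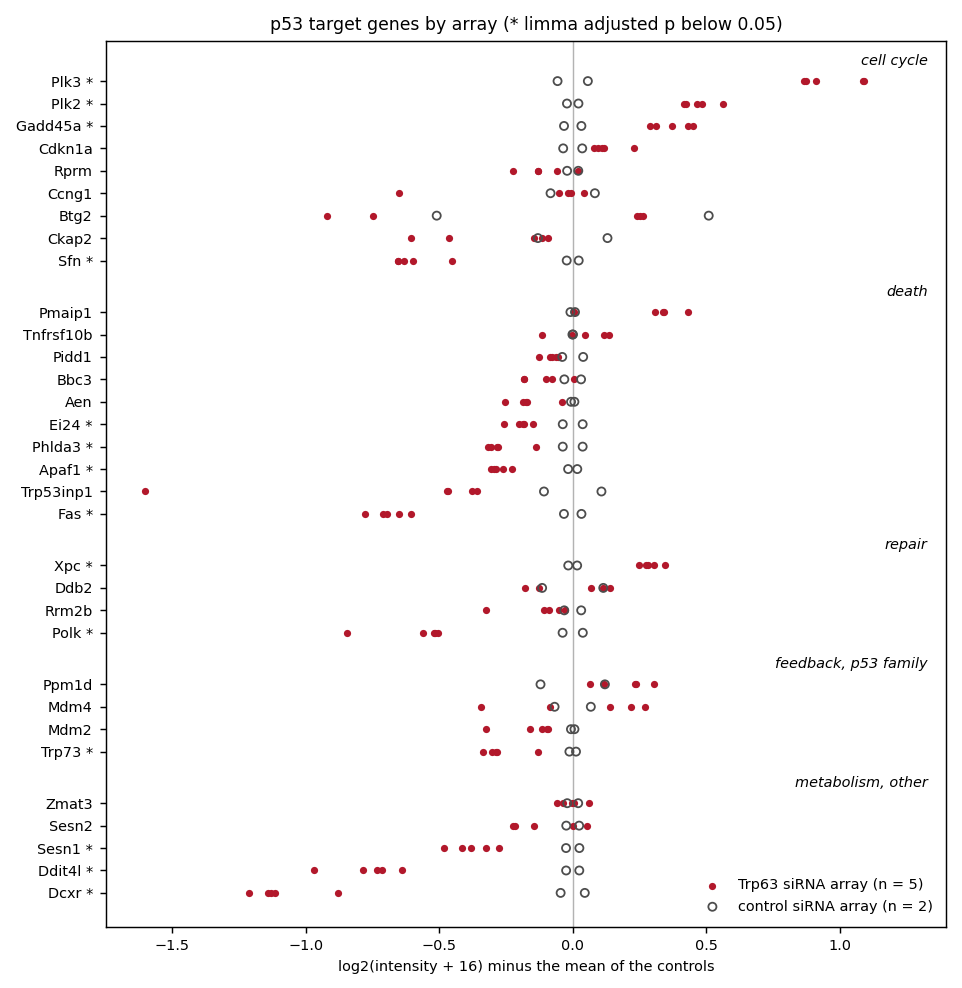
The 32 measured p53 target genes by role, with 1 filled point for each of the 5 Trp63 siRNA arrays and 1 open point for each of the 2 control siRNA arrays; the horizontal axis is log2(intensity + 16) minus the mean of the controls. Points of the 14 starred members (limma adjusted p below 0.05) lie wholly on one side of both controls, from Plk3 at the top (log2 difference 0.97) to Dcxr at the bottom (-1.10).

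The cell cycle members went in both directions, with 3 of 9 higher and 1 lower, against 8.03% and 8.57% of all genes. Plk3, a polo-like kinase of the stress checkpoint, read 699, 700, 597, 617 and 601 in Trp63 siRNA arrays (replicates 1, 2, 3, 4 and 7, in this order throughout) against 334 and 307 in control arrays. Its lowest silenced value was well above both controls, and the rise was 1.95-fold (log2 difference 0.97, SE 0.0894, limma adjusted p = 0.00017). Plk2, the related kinase that also serves centriole duplication, read 3291, 3311, 3643, 3447 and 3410 against 2426 and 2500, a 1.39-fold rise (0.47, SE 0.051, limma adjusted p = 0.00041). Both kinases were thus higher on every silenced array.

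Gadd45a, which encodes a stress sensor that inhibits the mitotic kinase, read 296, 332, 328, 300 and 314 with Trp63 siRNA against 233 and 245 with control siRNA. The groups did not overlap (1.29-fold, log2 difference 0.37, SE 0.0678, limma adjusted p = 0.00613), and the call ended without control replicate 5 (limma adjusted p = 0.0663). Sfn, the 14-3-3 sigma protein that keeps the mitotic cyclin-kinase complex in the cytoplasm and is abundant in epidermis, went the other way. It read 4971, 4320, 4312, 4495 and 4381 against 6912 and 6699, a 1.51-fold fall (-0.60, SE 0.0567, limma adjusted p = 0.000196). Its highest silenced value, in replicate 1, was still below both controls.

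Cdkn1a, the cyclin-dependent kinase inhibitor p21 and the best known arrest target, did not pass the test. It read 4511, 4150, 4174, 4109 and 4073 with Trp63 siRNA against 3754 and 3945 with control siRNA. All 5 silenced values lay above both controls, but by little: the log2 difference was 0.13 (SE 0.0489, limma adjusted p = 0.118). Its second probe set gave 1653, 1578, 1528, 1424 and 1431 against 1372 and 1337 (log2 difference 0.16, limma adjusted p = 0.163). Cdkn1a was not called under any of the 24 other settings.

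Ccng1, cyclin G1, read 2098, 3266, 3405, 3288 and 3186 against 3118 and 3500. Apart from replicate 1 the silenced values fell among the controls (log2 difference -0.14, SE 0.169, limma adjusted p = 0.621, and -0.0079 without replicate 1). Rprm (reprimo, an arrest protein) and Ckap2 (a spindle protein) differed by -0.10 and -0.28 and did not pass (limma adjusted p = 0.368 and 0.243). With the split of the arrays by melanocyte markers as a block, Ckap2 passed (-0.32, limma adjusted p = 0.00811).

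Btg2, an antiproliferative protein that recruits the deadenylation machinery, gave a different answer at each of its 2 probe sets. The brightest read 599, 530, 1216, 1204 and 1226 with Trp63 siRNA against 710 and 1455 with control siRNA (log2 difference -0.18, SE 0.392, limma adjusted p = 0.787). Its low arrays were silenced replicates 1 and 2 and control replicate 5, the same 3 arrays in which the melanocyte markers were high. The summed fibroblast markers were highest in these 3 arrays too. With the melanocyte marker split as a block the Btg2 difference was -0.29 (limma adjusted p = 0.00996). What part the melanocyte or fibroblast markers have in it was not tested. The dimmer probe set did not follow the split: it read 734, 649, 659, 660 and 735 against 882 and 1020, with a fall of 1.37-fold (-0.46, SE 0.0867, limma adjusted p = 0.00727).

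**Figure D2:**
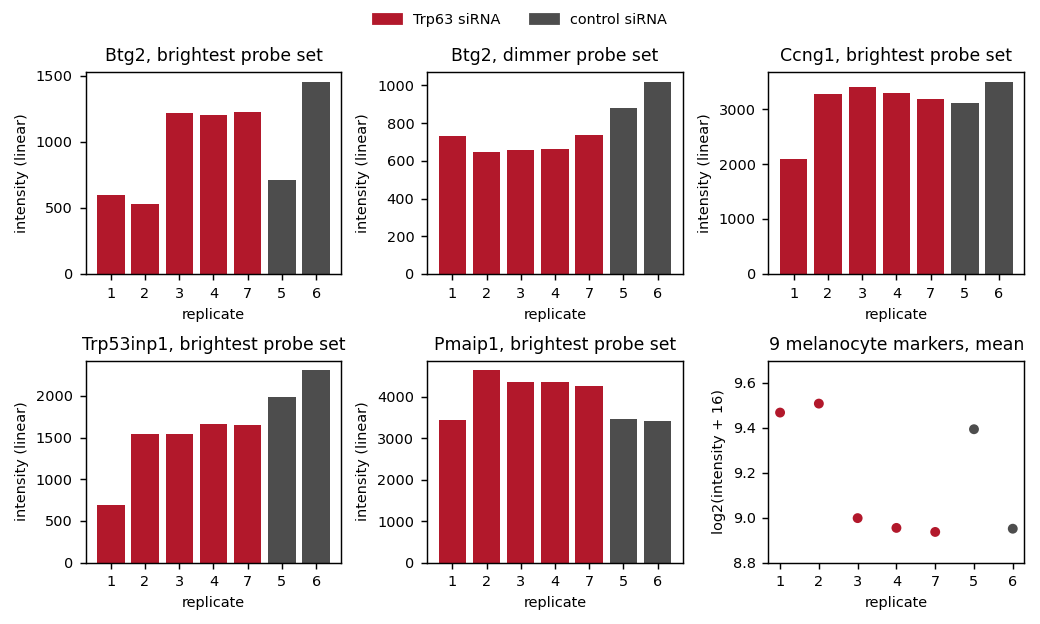
Intensity on a linear axis, by replicate, of both Btg2 probe sets and of the brightest Ccng1, Trp53inp1 and Pmaip1 probe sets, with Trp63 siRNA arrays left of control arrays; the last panel gives the mean log2(intensity + 16) of 9 melanocyte markers. The brightest Btg2 probe set is low where the melanocyte markers are high, and Ccng1 (2098) and Trp53inp1 (695) are low in Trp63 siRNA replicate 1.

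Of the 10 measured death members none rose and 4 fell, against 8.03% and 8.57% of all genes. Among so few genes, none rising is near the share of all genes. Fas, the death receptor of the extrinsic pathway, fell most: 138, 134, 129, 121 and 128 with Trp63 siRNA against 224 and 214 with control siRNA. The silenced values kept close together and far below both controls (log2 difference -0.69, SE 0.0543, a fold of 1.61, limma adjusted p = 7.08e-05). Fas was dim, below the median intensity of every array in the silenced group, so its fold may be understated. The other death receptor measured among the members, Tnfrsf10b, which binds TRAIL, was also dim and read 150, 125, 152, 137 and 142 against 137 and 137 (0.04, SE 0.0677, limma adjusted p = 0.75).

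Apaf1, the scaffold of the apoptosome, read 354, 374, 357, 358 and 366 against 436 and 447, with no overlap (log2 difference -0.28, SE 0.0603, limma adjusted p = 0.0144). Phlda3, which holds back the survival kinase Akt, read 2771, 2444, 2501, 2508 and 2463 against 2970 and 3129 (-0.26, SE 0.0597, limma adjusted p = 0.0165). Ei24, a membrane protein of the endoplasmic reticulum, read 2506, 2448, 2415, 2318 and 2437 against 2706 and 2850 (-0.20, SE 0.0503, limma adjusted p = 0.0293). These 3 falls were small, 1.21-fold at most, and none passed once either control was dropped. Limma adjusted p was 0.0716, 0.0594 and 0.0739 for Apaf1, Phlda3 and Ei24 without control replicate 5 and 0.112, 0.143 and 0.203 without replicate 6. The Ei24 call also ended with median centring (limma adjusted p = 0.0604) and without Trp63 siRNA replicate 3, 4 or 7 (limma adjusted p = 0.0647, 0.069 and 0.0707). The dimmer Apaf1 probe set differed by -0.09 and did not pass (limma adjusted p = 0.302).

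The 2 BH3-only members, whose proteins trigger mitochondrial apoptosis, did not pass. Pmaip1 (Noxa) read 3444, 4635, 4350, 4360 and 4256 with Trp63 siRNA against 3454 and 3413 with control siRNA. Replicates 2, 3, 4 and 7 were above both controls and replicate 1 was level with them (log2 difference 0.29, SE 0.0971, limma adjusted p = 0.0795). Without replicate 1 it passed (0.36, limma adjusted p = 0.000451). Bbc3 (Puma) read 250, 217, 217, 235 and 231 against 254 and 243 (-0.11, SE 0.0674, limma adjusted p = 0.32), with the groups overlapping.

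Trp53inp1, which takes part in p53-dependent death and autophagy, read 695, 1542, 1546, 1667 and 1646 against 1988 and 2310. Every silenced array was below both controls, with replicate 1 far below the other 4, and the difference did not pass (log2 difference -0.66, SE 0.303, limma adjusted p = 0.18). Without replicate 1 the difference was -0.42 and passed (limma adjusted p = 0.0026). Aen, an apoptosis-enhancing nuclease, and Pidd1, a death domain scaffold, differed by -0.17 and -0.08 (limma adjusted p = 0.151 and 0.326). Aen also passed without replicate 1 (-0.20, limma adjusted p = 0.0274), but its other 2 probe sets each differed by 0.09 and did not pass.

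Of 4 repair members 1 rose and 1 fell, against 8.03% and 8.57% of all genes. Xpc, which recognises damage in nucleotide excision repair, read 235, 228, 224, 219 and 225 with Trp63 siRNA against 184 and 180 with control siRNA. The groups were tight and apart (1.22-fold, log2 difference 0.29, SE 0.0521, limma adjusted p = 0.00559), and the call ended without control replicate 6 (limma adjusted p = 0.0669). Polk, a polymerase that copies damaged DNA, read 237, 301, 293, 305 and 303 against 428 and 451, a 1.51-fold fall (-0.59, SE 0.0989, limma adjusted p = 0.00397). That fall was seen at 1 of its 2 probe sets: the dimmer one read 123, 153, 161, 153 and 166 against 151 and 161 (-0.05, limma adjusted p = 0.779). Without control replicate 6 the Polk call ended (limma adjusted p = 0.0558). Rrm2b, a ribonucleotide reductase subunit that supplies nucleotides for repair, and Ddb2, which recognises ultraviolet damage, differed by -0.12 and 0.004 (limma adjusted p = 0.349 and 0.985).

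Among the feedback regulators none passed, and Trp73 of the p53 family fell. Mdm2, the ubiquitin ligase that marks p53 for degradation, read 1052, 1182, 1236, 1221 and 1238 with Trp63 siRNA against 1317 and 1329 with control siRNA. All 5 silenced values were below both controls, but the difference did not pass (log2 difference -0.16, SE 0.0768, limma adjusted p = 0.2), and its dimmer probe set differed by 0.03. Ppm1d (the phosphatase Wip1) read 344, 304, 315, 343 and 361 against 316 and 265, and the groups overlapped (0.19, SE 0.0907, limma adjusted p = 0.19). Mdm4, the partner of Mdm2, differed by 0.04 (limma adjusted p = 0.886).

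Trp73, the gene of p73, was dim and read 168, 149, 143, 148 and 147 against 186 and 183 (log2 difference -0.27, SE 0.0604, limma adjusted p = 0.0164). This call ended when either control was dropped (limma adjusted p = 0.113 and 0.0936). Its other probe set read 142, 137, 128, 135 and 131 against 183 and 202 (-0.47, SE 0.0545, limma adjusted p = 0.000622). Both probe sets were therefore lower on all 5 silenced arrays.

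Of the 5 metabolic and other members 3 fell and none rose, against 8.57% and 8.03% of all genes. Dcxr, a reductase of dicarbonyls and L-xylulose, showed the largest difference of all 32 members. It read 750, 591, 634, 623 and 627 with Trp63 siRNA against 1350 and 1438 with control siRNA, a 2.14-fold fall (log2 difference -1.10, SE 0.0934, limma adjusted p = 0.000111). Ddit4l, an inhibitor of mTOR signalling, read 226, 176, 210, 202 and 213 against 354 and 367, a 1.70-fold fall (-0.77, SE 0.086, limma adjusted p = 0.000489). Its other probe set read 261, 243, 238, 219 and 224 against 262 and 247 (-0.10, limma adjusted p = 0.407), so the Ddit4l fall belongs to 1 of 2 probe sets.

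The sestrins, which restrain mTOR and oxidative damage, differed from each other. Sesn1 read 228, 220, 195, 211 and 205 against 274 and 285, a 1.30-fold fall (log2 difference -0.38, SE 0.0671, limma adjusted p = 0.00542) that no longer passed once control replicate 6 was dropped (limma adjusted p = 0.0659). Its other 2 probe sets differed by -0.26 and -0.27 (limma adjusted p = 0.083 and 0.0105). Sesn2 read 728, 702, 602, 633 and 598 against 690 and 714, overlapping the controls (-0.11, SE 0.0925, limma adjusted p = 0.476). Whether the 2 sestrins differ in their response was not tested. Zmat3, an RNA-binding protein, differed by -0.0063 (SE 0.0577, limma adjusted p = 0.953).

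**Figure D3:**
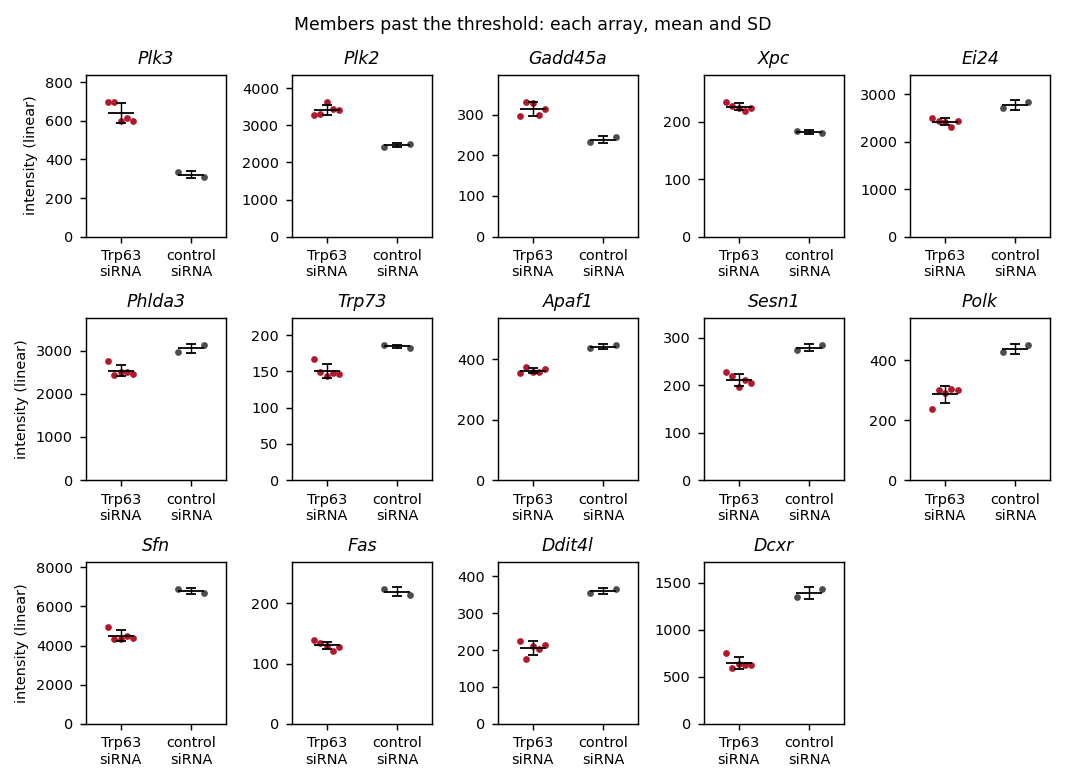
Intensity on linear axes that start at 0 of the 14 members past the threshold, with points for arrays and bars for the mean and SD of 5 Trp63 siRNA arrays (left) and 2 control siRNA arrays (right). The groups do not overlap in any panel; Plk3, Plk2, Gadd45a and Xpc are higher and the other 10 lower with Trp63 siRNA.

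The members also differed in how evenly they behaved among the silenced arrays. The SD over the 5 Trp63 siRNA arrays had a median of 0.094 on the log2 scale over the members and 0.072 over all genes. The gap between the 2 controls went the other way, with a median of 0.064 over the members and 0.077 over all genes. The SD was above 0.2 in 5 members: Btg2 (0.60), Trp53inp1 (0.53), Ccng1 (0.29), Mdm4 (0.25) and Ckap2 (0.24). None of these passed, and a large SD itself raises the SE on which the test rests. How many of all genes lay above 0.2 was not counted. The SD was lowest in Pidd1 (0.028) and Apaf1 (0.031). The median member lay 0.14, 0.17, 0.11, 0.07 and 0.09 log2 units below the control mean in Trp63 siRNA replicates 1, 2, 3, 4 and 7, and the median over all genes lay at 0.0022, -0.05, -0.06, -0.03 and -0.06. Of the 32 members 20, 23, 20, 22 and 21 were below the control mean on these arrays, against 21 in control replicate 5 and 11 in control replicate 6. Over the groups the difference was negative in 22 of the 32 members and in 7887 of all 12393 genes, so these counts show nothing particular to the members. In every fit that left out 1 array, 6 of the 14 calls held: Plk3, Plk2, Sfn, Fas, Dcxr and Ddit4l. The other 8 were lost in at least 1 such fit.

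Other genes of the pathway were read from lists taken from general knowledge. These lists too were chosen with earlier results of these data known, and what part that choice has in the shares was not tested. Of 28 measured further p53 targets 7 rose and 7 fell, with a median log2 difference of -0.07. That is 50%, against 16.6% of all genes, of which 8.03% rose and 8.57% fell. Thbs1, a matrix protein that restrains vessel growth, read 2606, 2419, 3667, 3423 and 3503 with Trp63 siRNA against 1061 and 1151 with control siRNA (1.47, SE 0.159, limma adjusted p = 0.000415). Dyrk3, a kinase, read 397, 377, 493, 459 and 448 against 192 and 212 (1.04, SE 0.105, limma adjusted p = 0.000264). Both were far above the controls on all silenced arrays. The cytokine gene Lif rose 1.69-fold (0.76, SE 0.0789, limma adjusted p = 0.00032), although its other probe set differed by -0.023. Ercc5, a nuclease of excision repair, fell 1.49-fold (-0.57, SE 0.0607, limma adjusted p = 0.000363). Without control replicate 6 fewer further targets fell, and fewer probe sets fell over the whole array as well.

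Of 23 measured genes that act on p53 or signal damage to it, 1 rose and 2 fell. That is 13.0%, near the 16.6% of all genes. Hipk2, a kinase that phosphorylates p53 after damage, read 428, 463, 499, 460 and 494 with Trp63 siRNA against 224 and 233 with control siRNA, a 1.98-fold rise (log2 difference 0.99, SE 0.0754, limma adjusted p = 6.1e-05). The checkpoint kinase gene Chek2 read 153, 143, 160, 164 and 162 against 210 and 256, a 1.44-fold fall (-0.52, SE 0.0788, limma adjusted p = 0.00234). Usp7, the enzyme that removes ubiquitin from Mdm2 and p53, fell 1.16-fold (-0.21, SE 0.0592, limma adjusted p = 0.0429), and no longer passed once either control was dropped (limma adjusted p = 0.192 and 0.168). The Usp7 call also ended without Trp63 siRNA replicate 2, 3, 4 or 7 (limma adjusted p = 0.0601 to 0.0946) and with median centring (limma adjusted p = 0.0594), and its other probe set differed by -0.05 (limma adjusted p = 0.568). The number that fell was 4 without Trp63 siRNA replicate 1, where 3176 probe sets fell over the whole array, against 1847 with all 7 arrays. It was 1 without Trp63 siRNA replicate 2, 3, 4 or 7, where 1234 to 1489 probe sets fell.

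The last list held cell cycle genes that are lowered when p53 acts through Cdkn1a. Of 19 measured genes 8 (42.1%) fell and none rose, the median log2 difference was -0.38, and 15 had all silenced arrays below both controls. Among all genes 8.57% fell, and 24% had all silenced arrays below both controls. Cenpa, the centromeric histone, read 770, 628, 755, 769 and 771 with Trp63 siRNA against 944 and 1148 with control siRNA (-0.49, SE 0.106, limma adjusted p = 0.014). Cdc20 (-0.43, limma adjusted p = 0.0144), which activates the anaphase ubiquitin ligase, the cytokinesis kinesin gene Kif23 (-0.47, limma adjusted p = 0.0157, and 0.0841 without control replicate 5) and the cyclin gene Ccnb2 (-0.49, limma adjusted p = 0.0158) also fell. The second brightest Kif23 probe set differed by -0.14 (limma adjusted p = 0.267) and the mean of its 3 probe sets by -0.22 (limma adjusted p = 0.0541), neither past the threshold. Calls among these 19 genes were lost without either control, as they were over the whole array. Without Trp63 siRNA replicate 1, 14 of them fell, and over the whole array 3176 probe sets fell, against 1847 with all 7 arrays. Without replicate 3, 4 or 7, 5 fell, with 1234 to 1297 probe sets lower over the whole array. With the melanocyte marker split as a block 17 fell, with 2895 probe sets lower over the whole array.

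**Figure D4:**
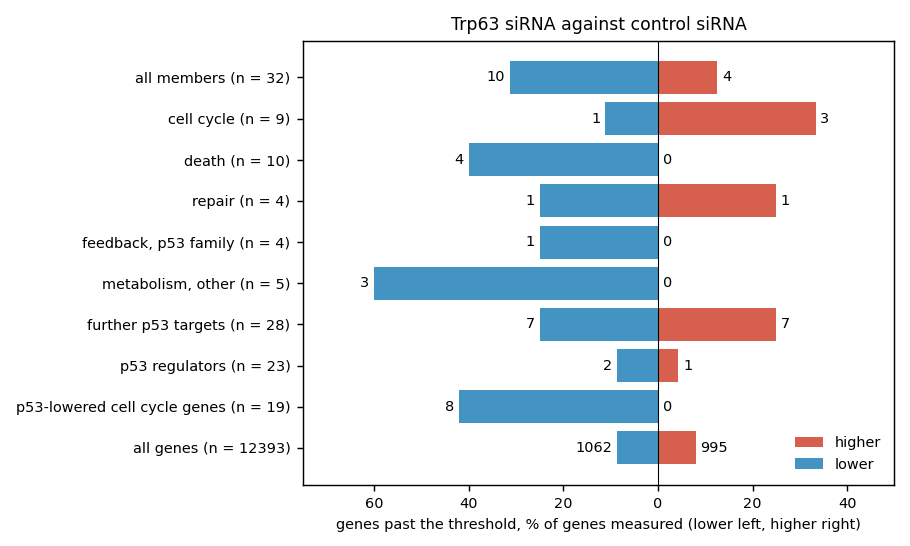
Share of measured genes past the threshold (limma adjusted p below 0.05), higher to the right and lower to the left with Trp63 siRNA against control siRNA, in percent of each group's genes; the number beside a bar is the count of genes. Among the members 4 were higher and 10 lower, the death members hold 4 lower and 0 higher, and all genes serve as background with 995 higher and 1062 lower.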

How the data were processed

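Per the labels, RNA had been purified with Trizol, labelled with biotin as complementary RNA and measured on Affymetrix arrays, 1 per sample. The deposited values are linear intensities, 1 per probe set and array. The sources used here do not give the authors' probe summary or normalisation. Arrays have no read depth, and their number (5 and 2) limits the precision.

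Of 22690 probe sets, 64 array controls were left out. Of the 22626 tested, 20380 had 1 gene symbol, 691 several and 1555 none, and only those with 1 were used for genes. Intensities were taken as log2(intensity + 16), with no filter. Groups were compared with limma 3.58.1 in R 4.3.3 (lmFit, eBayes with a variance trend). P-values were adjusted by Benjamini-Hochberg over all 22626 probe sets, with a threshold of 0.05. Every adjusted p quoted is limma's. The procedure was tested on simulated data.

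The members and lists were chosen with earlier results of these data known. Genes named were Trp63, all measured members and, of each further list, up to 4 called genes with the smallest p. Sequences came from RefSeq tables (GRCm38.p6). Alternatives covered normalisation, pseudocount, dim probe sets, variance estimate, array weights, choice of probe set, leaving out each array, and splits of the arrays by melanocyte markers and by spike controls. Applying them to genes that are no members was chosen after seeing the data. Figures used matplotlib 3.10.9.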

Additional observations from a re-analysis of the deposited data

Results flagged for a closer look

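In 9 of the 32 members 1 of the 5 Trp63 siRNA arrays lay far from the other 4, and in all 9 it was replicate 1. Chance flags about 1 in 20 such groups, but genes read on the same array are not independent. How often replicate 1 lay apart over all genes was not counted, so nothing particular to the members is shown. Replicate 1 was highest for Cdkn1a (4511, next 4174), Sfn (4971, next 4495), Phlda3 (2771, next 2508), Trp73 (168, next 149) and Dcxr (750, next 634). It was lowest for Ccng1 (2098, next 3186), Trp53inp1 (695, next 1542), Rrm2b (167, next 197) and Polk (237, next 293). Outside the members, replicate 1 was highest for Bcl2l1 (888, next 800) and replicate 2 lowest for Cenpa (628, next 755). The ratios of 3′ to 5′ array control probe sets in replicate 1 were 0.93 for Gapdh and 1.21 for beta-actin, within the 0.90 to 0.94 and 1.14 to 1.25 of the silenced arrays (controls 0.98 in both, and 1.30 and 1.36), while that of the transferrin receptor was the lowest of all arrays, 2.38 against 2.71 to 3.21. Their part in the values of replicate 1 was not tested.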

How the results depend on the processing

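No paired analysis was possible because no replicate number occurs in both groups. No member that passed changed direction under any of the 24 alternatives, and outside the members Lif, at its other probe set, turned to -0.023. Leaving out 1 array gave 3 to 5 members higher and 4 to 12 lower, 5 to 7 further p53 targets higher and 3 to 9 lower, 1 p53 regulator higher and 1 to 4 lower, and 0 to 14 p53-lowered cell cycle genes lower. Over all probe sets it gave 776 to 2326 higher and 598 to 3176 lower. With 1 control left out, the other is assumed to vary like the silenced arrays. With the second brightest probe set 4 further targets rose and 1 regulator fell; 1 regulator also fell with median centring, with a block for the spike split and on the high side of that split. Array weights gave 2823 probe sets lower. With the melanocyte marker split as a block, 6 regulators, 17 cell cycle genes and 2895 probe sets fell. On its high side (2 silenced arrays, 1 control), 2 members rose and 6 fell, 2 further targets, 4 regulators and 5 cell cycle genes fell, and 874 probe sets were higher and 996 lower. On its low side (3 and 1), 6 members rose and 15 fell, 12 further targets, 7 regulators and 18 cell cycle genes fell, and 3199 probe sets were higher and 3684 lower. On the high side of the spike split (3 and 1), 1121 probe sets were higher and 1128 lower, and on its low side (2 and 1) limma called 0 probe sets and so 0 genes of any list. Dim members such as Fas and Trp73 lie near background, where folds are compressed. The cause of these shifts was not tested.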

Other observations

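Beyond the 4 already described, 10 more of the 28 further p53 targets passed, and they are named here after their values were seen. Bcl2l1, which encodes the survival protein Bcl-xL, read 888, 800, 770, 773 and 789 with Trp63 siRNA against 529 and 504 with control siRNA (log2 difference 0.62, limma adjusted p = 0.0008). The death agonist gene Bid rose as well (0.36, limma adjusted p = 0.0242), as did the growth factor gene Tgfa (0.69, limma adjusted p = 0.00248). Igfbp3, which encodes a binding protein of insulin-like growth factors, also rose (0.63, limma adjusted p = 0.00775). Perp, a desmosomal protein that is a target of p53 and p63, read 6615, 7113, 6500, 6840 and 6608 against 8413 and 8325 (-0.31, limma adjusted p = 0.000731). Fbxw7, part of a ubiquitin ligase, fell too (-0.63, limma adjusted p = 0.000797). The receptor gene Tnfrsf1a (-0.43), the ubiquitin ligase gene Siah1a (-0.34), the epoxide hydrolase gene Ephx1 (-0.29) and Pml, the organiser of nuclear bodies (-0.31), were lower with limma adjusted p between 0.00936 and 0.0423. Leaving out 1 array at a time ended none of the calls of Bcl2l1, Tgfa, Perp and Fbxw7, and ended each of the other 6 at least once. Without control replicate 5, limma adjusted p was 0.0642 for Igfbp3, 0.225 for Bid, 0.132 for Ephx1 and 0.209 for Pml. Without control replicate 6 it was 0.0705 for Igfbp3, 0.0964 for Tnfrsf1a, 0.144 for Siah1a, 0.211 for Ephx1 and 0.159 for Pml. Bid, Ephx1 and Pml also no longer passed without Trp63 siRNA replicate 3, 4 or 7, and Pml without replicate 2, with limma adjusted p of 0.0549 to 0.0896. The second brightest probe set gave 0.04 for Tgfa, -0.23 for Siah1a and 0.26 for Bid, and none of these passed (limma adjusted p = 0.643, 0.0674 and 0.0837). The Ephx1 call also ended with median centring (limma adjusted p = 0.059) and when the split by spike controls was a block (0.0587).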
